A study of Homo sapiens with 12 samples.

Results

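The subject here is a module of genes of mitosis and of the G2 phase before it, given as a list of 37 symbols, of which 36 were in the count table and all 36 were tested among 16704 genes. The remaining listed symbol was not analysed here. The genes were matched to the table by name. Poly(A) RNA was sequenced from SH-SY5Y, an established human neuroblastoma cell line with features of immature sympathetic neurons. The tested cells were 3 FMR1-knockout (KO) SH-SY5Y lines, generated independently of each other. FMR1 encodes the RNA-binding protein FMRP, whose loss underlies fragile X syndrome. The cells they were set against were wild-type (WT) SH-SY5Y. All groups grew for 2 weeks in a DMEM:F-12 medium for SILAC (stable isotope labelling with amino acids in cell culture) with dialyzed serum, either heavy, in which lysine (13C6,15N2) and arginine (13C6,15N4) are isotope-labelled, or light, with the ordinary amino acids. The 4 groups were KO in heavy medium, KO in light medium, WT in heavy medium and WT in light medium, with 3 libraries each. KO libraries carry the number of their line, and every line was sequenced 2 times, 1 time per medium. Nothing in the labels says that WT libraries came from separate cultures. The p-values therefore measure only the spread between these samples, which may be technical, and effects of losing FMR1 cannot be told apart from those of deriving a KO line.

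Entry into mitosis is driven by CDK1 bound to cyclin A or B, which the CDC25 phosphatases switch on and which PLK1 and the Aurora kinases assist. The spindle checkpoint then holds the anaphase-promoting complex, with its activator CDC20, until every kinetochore is attached, after which securin and the cyclins are destroyed and the cell divides. Messenger RNAs of these genes peak in G2 and mitosis: in resting cells and G1 the DREAM complex represses them through the CHR element of their promoters, and in G2 MYBL2, the MuvB core and FOXM1 activate them, often with NF-Y bound to CCAAT boxes. Neuroblastoma cell lines cycle in culture and express genes of this kind. In RNA of whole cultures, fewer cells in G2 and mitosis and less RNA per such cell cannot be told apart.

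Libraries held between 25935152 and 40257027 counts, and TMM scaling factors lay between 0.981 and 1.024. Levels are CPM, the usual scaling of a count by the library total over the tested genes, with TMM factors. FMR1, the targeted transcript (ENSG00000102081.14, chromosome X, 147911951 to 147951125, GRCh38), stood at 22.4, 12.8 and 7.19 CPM in KO lines 1, 2 and 3 in heavy medium and at 11.4, 11.5 and 9.06 CPM in light medium. WT libraries had 42, 37.3 and 35.9 CPM in heavy and 37.5, 36.4 and 37.3 CPM in light medium. Every KO library was below every WT library, and the heavy library of line 1 stood apart from the other KO libraries. Across all genes, the deviation of that library from its group mean correlated at 0.043 with that of the light library of the same line, against 0.792 for line 2 and 0.786 for line 3. Results for line 1 were therefore also computed without its heavy library and are given beside the counts of calls and the members described library by library. All 12 sympathetic neuroblastoma markers were above 0 in every library, with a summed level of 7480 to 10100 CPM in KO libraries and 9730 to 10700 CPM in WT libraries. The lowest of them, TH, was near 0, at 0.193 to 1.04 CPM in KO and 0.461 to 0.854 CPM in WT libraries. Of 7 fibroblast markers, DCN was at 0 throughout and the sum, nearly all from PDGFRB and THY1, ranged from 163 to 190 CPM in KO and from 189 to 210 CPM in WT libraries. The Schwann cell marker SOX10 and the blood markers PTPRC, CD3E and HBB were at 0. The 4 Schwann cell markers summed to 1.27 to 4.17 CPM in KO and 1.39 to 2.33 CPM in WT libraries, the 4 epithelial markers to 1.19 to 1.68 and 0.953 to 1.97 CPM, and the 4 blood markers to at most 0.0386 and 0.0494 CPM. The mitochondrial share of counts was 10.87 to 12.16% in KO and 9.53 to 10.53% in WT libraries, and its part in the results was not tested.

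RefSeq promoter windows (GRCh38.p14, from 250 bases before to 50 bases after a transcription start) matched 30 of the 36 genes by symbol. Windows were searched on both strands for the CHR letters TTTGAA or TTCGAA, for the CCAAT box CCAAT and for GGCGG, a core shared by GC boxes. The CHR letters were in a window of 23 of the 30 genes (76.7%), against 15.2% of 10975 tested genes with a window. CCAAT was in 24 of them (80%), against 42.8%, and both stood in the same window for 19 (63.3%), against 6.33%. GGCGG was in all 30 (100%), against 91.2%. A match of letters is a description and not evidence of binding. The 160 bases before the start are printed for 8 genes whose levels carry the results, 5′ to 3′ along the gene, with CHR letters and CCAAT in capitals on either strand (TTCAAA and ATTGG on the opposite one). For genes with several windows, the one whose start is nearest the annotated 5′ end was taken. Starts are those of RefSeq. By the GENCODE gene positions given below, the stretches of PLK1, AURKB, KIF20A and CDC25B lie inside the gene. Those of CCNB2 and CDC20 reach into it.
CCNB2, chr15:59104986-59105145, plus strand: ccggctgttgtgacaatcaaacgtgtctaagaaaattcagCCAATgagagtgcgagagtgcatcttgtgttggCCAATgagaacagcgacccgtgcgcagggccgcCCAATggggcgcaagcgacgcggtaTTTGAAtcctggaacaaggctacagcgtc
PLK1, chr16:23678729-23678888, plus strand: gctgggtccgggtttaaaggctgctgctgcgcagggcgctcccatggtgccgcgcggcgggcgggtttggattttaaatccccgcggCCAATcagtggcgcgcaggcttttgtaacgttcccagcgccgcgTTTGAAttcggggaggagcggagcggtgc
CDC20, chr1:43358821-43358980, plus strand: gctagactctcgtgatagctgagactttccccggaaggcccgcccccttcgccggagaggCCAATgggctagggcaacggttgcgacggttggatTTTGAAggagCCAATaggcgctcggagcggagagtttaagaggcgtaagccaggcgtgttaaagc
MKI67, chr10:128126424-128126583, minus strand: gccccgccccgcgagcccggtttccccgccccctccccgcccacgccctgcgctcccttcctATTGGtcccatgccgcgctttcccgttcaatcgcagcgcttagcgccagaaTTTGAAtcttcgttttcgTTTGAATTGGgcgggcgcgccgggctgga
AURKB, chr17:8210250-8210409, minus strand: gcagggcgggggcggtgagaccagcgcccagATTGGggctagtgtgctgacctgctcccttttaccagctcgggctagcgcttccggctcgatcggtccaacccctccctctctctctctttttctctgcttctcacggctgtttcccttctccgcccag
KIF20A, chr5:138178952-138179111, plus strand: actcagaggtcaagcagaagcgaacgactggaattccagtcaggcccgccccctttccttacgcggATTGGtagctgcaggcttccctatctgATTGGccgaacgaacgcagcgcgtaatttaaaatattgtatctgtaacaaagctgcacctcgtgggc
CENPF, chr1:214603035-214603194, plus strand: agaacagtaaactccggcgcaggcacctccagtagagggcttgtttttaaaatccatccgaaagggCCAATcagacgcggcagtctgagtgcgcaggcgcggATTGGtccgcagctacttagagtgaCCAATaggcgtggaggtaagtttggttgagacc
CDC25B, chr20:3786791-3786950, plus strand: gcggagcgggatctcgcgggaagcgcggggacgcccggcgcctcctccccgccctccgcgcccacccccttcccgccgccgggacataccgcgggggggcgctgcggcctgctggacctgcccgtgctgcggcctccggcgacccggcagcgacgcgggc

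In the printed stretches the CHR letters began 29 bases before the start in CCNB2 and in PLK1, 65 bases before it in CDC20, and 47 and 29 bases before it in MKI67. In MKI67 the second CHR match overlaps a CCAAT box on the opposite strand, which is why its capitals run on. AURKB, KIF20A and CENPF held CCAAT in these 160 bases and no CHR letters, and CDC25B, alone of the 8, held neither. That describes the printed stretches and not other starts of these genes. Among members not printed, CDC25C, CENPE and KIF2C also held neither in the window taken. Their log2 fold changes in line 1 against WT were -0.25, -0.35 and -0.17. Taking 1 window per gene, 21 genes had CHR letters and 9 did not. In line 1 against WT the median log2 fold change was -0.25 for the genes with the letters and -0.25 for those without, and in line 2 it was -0.16 and -0.09.

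The first comparison asked whether loss of FMR1 went with a changed level of these genes over both media, with medium as a covariate and 6 KO against 6 WT libraries. CCNB2, AURKB, KIF20A, CENPF and MKI67 were lower in KO cells, by between 13.4 and 24.8%, and CDC25B was higher by 18%. The other 30 genes did not pass. The 5 lower genes are 13.9% of the module, where 9.78% of all tested genes were called lower, and the 1 higher gene is 2.78%, where 15% were called higher (edgeR's quasi-likelihood test with Benjamini-Hochberg adjustment at 0.05, as for every adjusted p below unless another tool is named). By count, then, the share of lower calls was near the background. The median log2 fold change was -0.13 over the 36 genes and 0.003 over all tested genes, and 32 of the 36 values were below 0.

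CCNB2 encodes cyclin B2, a partner of CDK1 (chromosome 15, 59105078 to 59125045, plus strand, GRCh38). It had 72.5, 58.8 and 76 CPM in KO lines 1, 2 and 3 in heavy medium and 52.3, 60.8 and 81.6 CPM in light medium. WT cells had 87, 87.4 and 85.2 CPM in heavy and 90.2, 84.5 and 87.3 CPM in light medium. The groups did not overlap, and line 3 lay closest to WT. Its log2 fold change was -0.38 (SE 0.0932, edgeR adjusted p = 0.0134).

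AURKB, the kinase of the chromosomal passenger complex (chromosome 17, 8204733 to 8210600, minus strand), had 59.1, 45.6 and 56.9 CPM in the KO lines in heavy medium and 37.2, 41.6 and 62.1 CPM in light medium. Its WT values were 61.7, 69.2 and 71.4 CPM in heavy and 66.2, 67.6 and 65.3 CPM in light medium. Within each medium every KO library was below every WT library, although line 3 in light medium exceeded the lowest WT library of heavy medium. KO differed from WT by -0.41 in log2 units (edgeR adjusted p = 0.0212, SE 0.112), and the call was lost without the heavy (adjusted p = 0.0519) or the light library of line 2 (adjusted p = 0.0505).

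KIF20A encodes a kinesin that carries the passenger complex to the central spindle (chromosome 5, 138178719 to 138187715, plus strand). KO lines 1, 2 and 3 had 97.3, 85.7 and 96.9 CPM in heavy medium and 78.7, 85.8 and 95.7 CPM in light medium, against 105, 106 and 103 CPM and 106, 101 and 105 CPM in WT. All KO libraries were below all WT libraries, and the WT values spread by only 1.97 CPM (SD, n = 6). Its log2 fold change was -0.22 (SE 0.0515, edgeR adjusted p = 0.0106).

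CENPF, a large coat protein of the kinetochore (chromosome 1, 214603195 to 214664588, plus strand), had 371, 393 and 461 CPM in the KO lines in heavy medium and 346, 360 and 455 CPM in light medium. WT libraries had 523, 450 and 435 CPM in heavy and 484, 431 and 489 CPM in light medium. Lines 1 and 2 were below WT in both media, and line 3 lay inside the WT range of each. KO minus WT was -0.24 in log2 units (edgeR adjusted p = 0.0391, SE 0.0773). MKI67, the proliferation marker Ki-67, which coats mitotic chromosomes (chromosome 10, 128096659 to 128126385, minus strand), had 305, 344 and 370 CPM in heavy and 321, 332 and 346 CPM in light medium in the KO lines. In WT cells it had 448, 376 and 346 CPM in heavy and 406, 364 and 391 CPM in light medium, so that the heavy library of line 3 fell among the WT values. KO minus WT was -0.21 for this gene (SE 0.0632, edgeR adjusted p = 0.0288). CENPF lost its call in 7 and MKI67 in 5 of the 12 fits that left out a library, with adjusted p up to 0.0826 and 0.0597, and both lost it without the heavy library of line 1 (0.0694 and 0.0534). Both transcripts are long, with 11.7 and 12.8 kb of exon sequence. Tested coding genes with over 8000 exon bases had a median log2 ratio to the WT mean of 0.054 in the first WT library of heavy medium, where both genes were highest, and -0.048 in the third. The part of this length difference was not tested.

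CDC25B, a phosphatase that starts the activation of CDK1 (chromosome 20, 3786772 to 3806121, plus strand), went the other way. KO lines 1, 2 and 3 had 137, 153 and 128 CPM in heavy medium and 152, 156 and 143 CPM in light medium. WT cells had 114, 127 and 118 CPM in heavy and 130, 129 and 118 CPM in light medium. Within each medium all KO libraries were above all WT libraries, while line 3 in heavy medium lay below the 2 highest WT libraries of light medium. CDC25B rose by 0.24 in log2 units (edgeR adjusted p = 0.00572, SE 0.05).

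Over both media, 3 members (CCNB2, AURKB and KIF20A) were below the WT range of the medium in all 6 KO libraries, as were 5.48% of all tested genes. CDC25B was the only member above it in all 6, as were 8.08% of tested genes. A fit that treats the 6 KO libraries as independent counts each line 2 times. On counts summed per line, 3 KO lines against 3 WT sums, none of the 36 genes passed, with 0.446% of 17726 tested genes called lower and 1.09% higher. The smallest adjusted p was 0.0788, for KIF20A, and 7 members had an unadjusted p under 0.05, as had 4820 of the 17726 tested genes. Without line 2 the fit over both media called 2 members (10.2% of all genes), and without line 3 it called 22 (43.6% of all genes). Leaving out 1 library moved the count to 3 without line 2 in light medium, to 17 without line 3 in heavy medium and to 15 without line 3 in light medium, where 15.4, 32.1 and 35% of all genes were called. It gave 4 without the heavy library of line 1 (22.4%).

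Within a single medium, with 3 KO against 3 WT libraries, no member passed in heavy medium (0.112% of genes called) or in light medium (1.44% of genes called). At an unadjusted p under 0.05 there were 5 of the 36 members in heavy medium, where 2885 of 16083 tested genes were. In light medium there were 11, where 4040 of 16010 tested genes were. DESeq2 called 0 and 5 members, and its counts over all genes are given in the last section. The edgeR medians of the members were -0.1 and -0.16. Without the library of line 3, the heavy comparison called 5 members lower and 1 higher, where 4.61% of all genes were called lower and 9% higher. The light comparison then called 21 lower and 1 higher, where 18.4% were called lower and 20% higher. In each medium, the other 5 fits that left out 1 library were classed as unchanged.

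**Figure D1:**
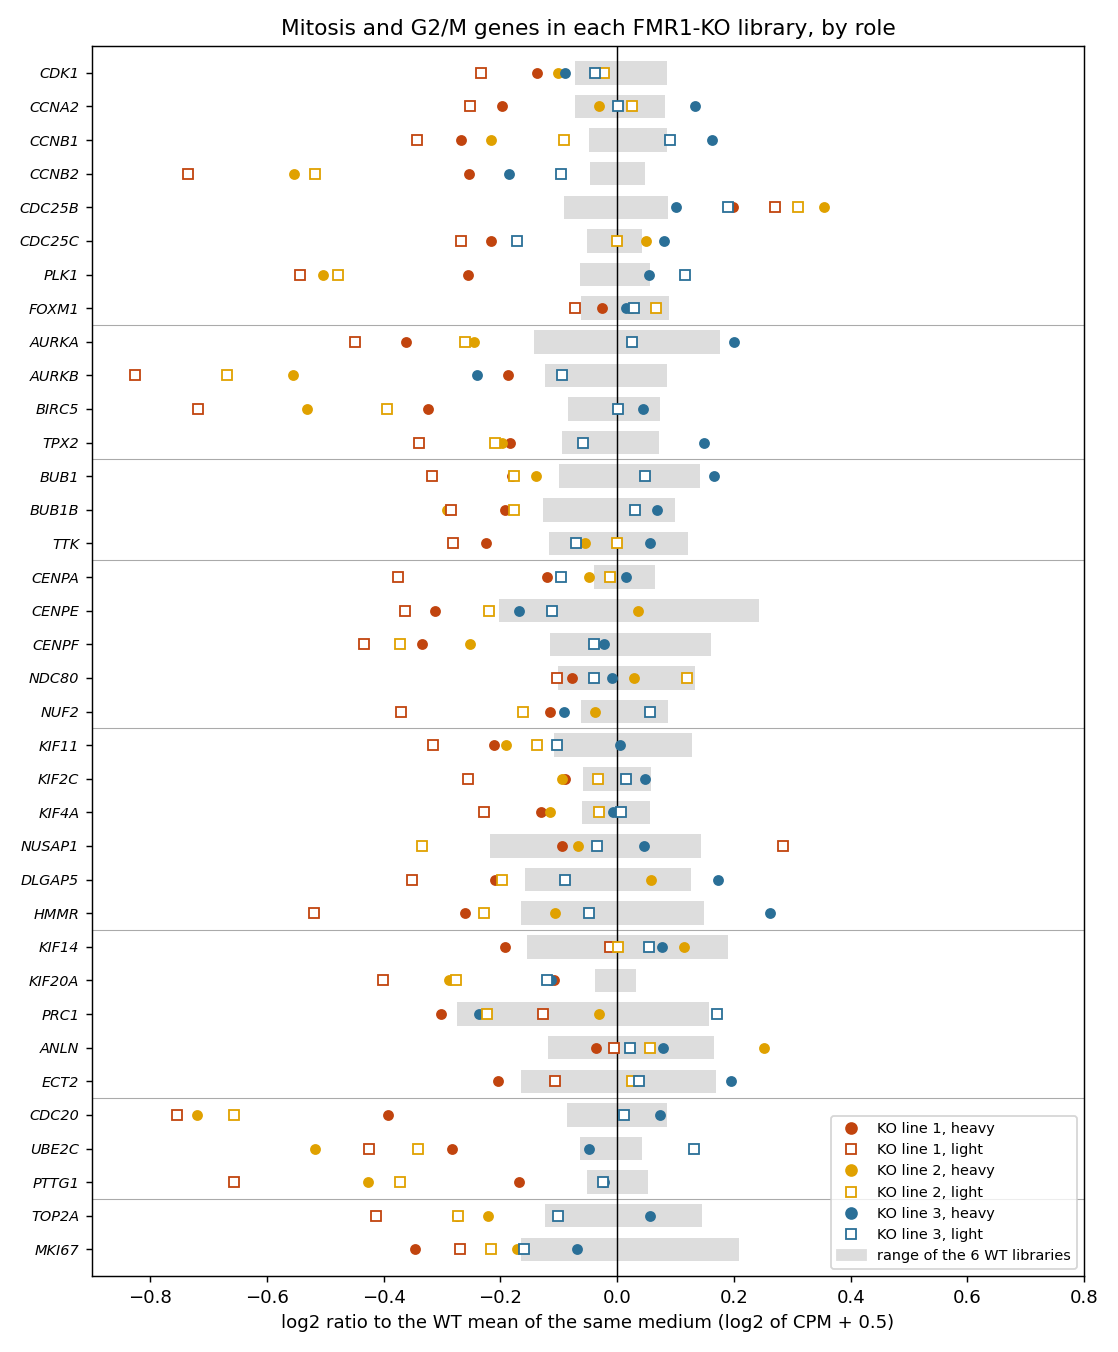
Log2 ratio of each gene to the WT mean of the same medium (x axis, log2 of CPM + 0.5) in the 6 KO libraries, one row per gene, grouped by role between grey lines; filled circles are heavy and open squares light medium, and grey bars span the 6 WT libraries. Both libraries of line 1 were below the 3 WT libraries of their medium for 28 genes, and both of line 2 for 18. CDC25B sits right of WT in all 6 KO libraries, and line 3 sits near 0.

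The lines were then set against WT one at a time, in a fit on all 12 libraries with medium as a covariate, so that each line has 2 libraries and all 3 comparisons share the 6 WT libraries. Line 1 had 28 of the 36 genes lower and 1 higher (77.8% and 2.78%), where 12.8% of all genes were called lower and 15.4% higher. Line 2 had 16 lower and 1 higher (44.4% and 2.78%), against a background of 20.1% and 22.9%. Line 3 had none in either direction, against 1.73% and 3.27%, and no call by DESeq2. At an unadjusted p under 0.05 it had 2 members (CDC25B and CCNB1, both above 0), where 3087 of 16704 tested genes were. Over the 36 genes, log2 fold changes had a median of -0.26 for line 1, -0.16 for line 2 and 0.01 for line 3, against 0, 0.002 and 0.005 over all genes. In line 3, 18 values lay below 0 and 18 above. Marker levels moved with the lines too: of the 6 fibroblast markers tested, 4 were lower in line 1, 5 in line 2 and 1 (PDGFRB) in line 3, and of the 12 neuroblastoma markers 5 were lower and 2 higher in line 1, 7 lower and 2 higher in line 2, and 1 lower in line 3. Their part in the result was not tested.

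The counts depend on single libraries. Without a library of a line, the lone library left is assumed to vary like the other groups. Without the heavy library of line 1, 24 members were lower and 1 higher, where 12.5% of all genes were called lower and 14.8% higher. The 4 calls lost were those of CDC25C (adjusted p = 0.13), CENPE (0.0818), DLGAP5 (0.0567) and MKI67 (0.0701), and the other 25 were kept. Without the light library of line 1, 8 members were lower and none higher, against 3.03% and 6.09% of all genes. For line 2, 8 were lower and 1 higher without the heavy library (11% and 14% of all genes) and 13 lower and 1 higher without the light one (15% and 17%). FMR1 itself had a log2 fold change of -1.18 in line 1, -1.64 in line 2 and -2.2 in line 3 (edgeR adjusted p = 0.000924, 6.94e-05 and 0.000162). In light medium alone, lines 1, 2 and 3 had 11.4, 11.5 and 9.06 CPM. A relation between the FMR1 level and the members was not tested.

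A test of the difference among the 3 lines, which the shared WT libraries do not enter as a contrast, called 15 of the 36 genes (41.7%), where 23.2% of all genes were called. Without the heavy library of line 1 it called 20, where 26.1% were called. Pairwise tests were added after the data were seen. In line 1 against line 3, 16 members were lower and none higher (11.9% of genes called in either direction), or 20 and none without the heavy library of line 1 (16.3%), and in line 2 against line 3, 13 were lower and none higher (27.4%). In line 2 against line 1 none passed (2.74%). There, 5 members had an unadjusted p under 0.05, as had 2453 of 16704 tested genes. The smallest among the members was 0.00689, for CCNA2. Among the members, the line fold changes spread most in CDC20, by 0.73 on the log2 scale, NUSAP1, by 0.63, and PLK1, by 0.58. They spread least in FOXM1, by 0.09, CDK1, by 0.12, and NDC80, by 0.17.

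**Figure D2:**
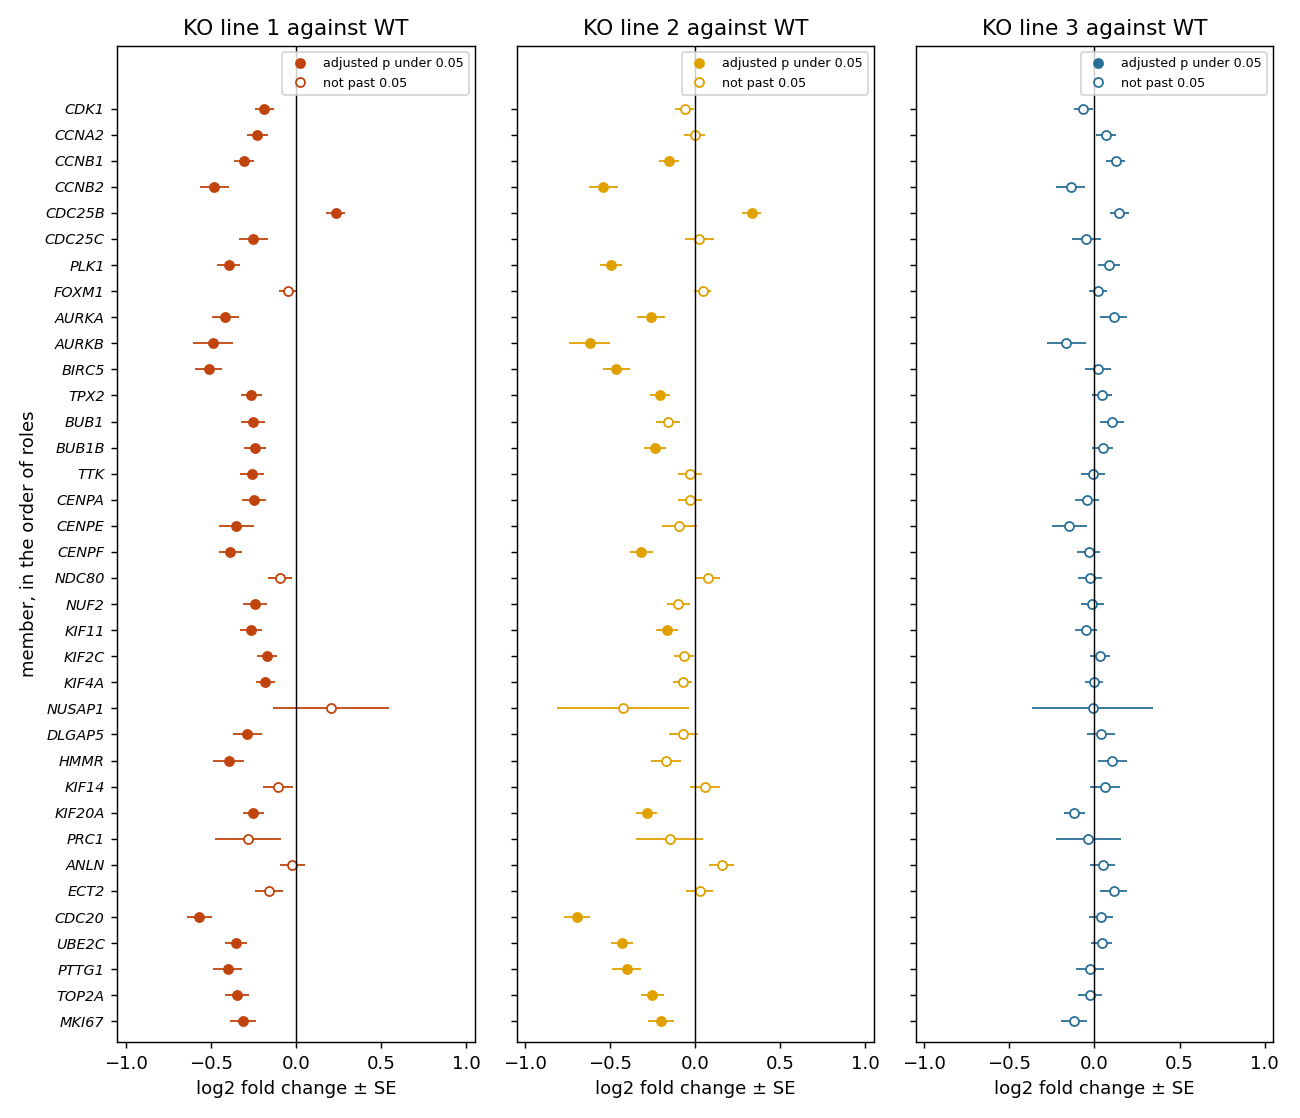
Log2 fold change against WT (x axis, bars ± SE) of each gene in KO lines 1, 2 and 3, with 2 libraries per line and 6 WT libraries; filled points passed an edgeR adjusted p of 0.05. The filled points left of 0 number 28 in line 1 and 16 in line 2, and line 3 has none.

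Of the 8 genes of mitotic entry, 6 were lower in line 1 (CDK1, CCNA2, CCNB1, CCNB2, CDC25C and PLK1), 3 in line 2 (CCNB1, CCNB2 and PLK1) and none in line 3, while CDC25B was higher in lines 1 and 2. PLK1, a kinase that activates CDC25 and matures the spindle poles (chromosome 16, 23677656 to 23690367, plus strand), had 92, 77.4 and 114 CPM in KO lines 1, 2 and 3 in heavy medium and 78, 81.7 and 124 CPM in light medium. WT cells had 106, 114 and 109 CPM in heavy and 117, 116 and 109 CPM in light medium. Lines 1 and 2 lay below all WT libraries, and line 3 in light medium lay above them. The log2 fold change was -0.4 (SE 0.0656, edgeR adjusted p = 0.000177) in line 1 and -0.49 (SE 0.0664, adjusted p = 8.71e-06) in line 2. For line 1 it was -0.56 without the heavy and -0.24 without the light library (adjusted p = 9.55e-06 and 0.0419). In line 3 PLK1 had 0.09 (adjusted p = 0.512).

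CCNB2 had log2 fold changes of -0.48, -0.54 and -0.14 in lines 1, 2 and 3 (edgeR adjusted p = 0.000419, 7.65e-05 and 0.393), and CCNB1, cyclin B1, of -0.31, -0.15 and 0.13 (0.000639, 0.0388 and 0.244). In line 1 without the heavy library they had -0.75 and -0.35. Their log2 ratios to the WT mean of the same medium were -0.254 and -0.267 in that library and -0.735 and -0.343 in the light one. CDK1, the kinase they activate, had 111, 114 and 115 CPM in the KO lines in heavy medium and 102, 118 and 117 CPM in light medium, against 123, 126 and 119 CPM and 119, 114 and 127 CPM in WT. Only line 1 passed (-0.19, adjusted p = 0.017, or -0.25 and 0.0183 without its heavy library). FOXM1, a transcription factor that activates G2 and mitotic genes, had 219, 227 and 225 CPM in heavy and 209, 231 and 225 CPM in light medium in the KO lines. WT cells had 214, 237 and 219 CPM and 219, 227 and 215 CPM, and the groups overlapped almost fully. Its log2 fold change over both media was 0.01 (SE 0.039, edgeR adjusted p = 0.931). Of its exon sequence, 15.9% overlaps the gene ITFG2 on the opposite strand, so its level is uncertain if the counting ignored strand. CCNA2 and CDC25C share 9.1 and 8.8% of their exon sequence with EXOSC9 and FAM53C, also on the opposite strand. CENPA shares 7% with SLC35F6 on the same strand, so its level is uncertain under either strand setting. BUB1B shares 10.2% with BUB1B-PAK6 on the same strand, and PLK1 11.6% with AC008870.3 on the opposite one. These 2 other genes had 0 and 1 counts over all libraries. Such counts do not show whether shared reads were left out. The level of BUB1B is therefore uncertain too, and that of PLK1 if the counting ignored strand.

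All 4 genes of the Aurora kinases and the chromosomal passenger complex were lower in lines 1 and 2 and none in line 3. AURKB had log2 fold changes of -0.49, -0.62 and -0.17 in lines 1, 2 and 3 (edgeR adjusted p = 0.00722, 0.000897 and 0.487). In line 1 it had -0.84 without the heavy library. Its log2 ratio to the WT mean of the same medium was -0.187 in the heavy library of line 1 and -0.826 in the light one. BIRC5, survivin, the subunit that anchors the complex at centromeres, had 161, 139 and 207 CPM in the KO lines in heavy medium and 123, 154 and 203 CPM in light medium. Its WT values were 194, 208 and 202 CPM in heavy and 214, 205 and 191 CPM in light medium. Line 3 lay within the WT range and lines 1 and 2 below it. The log2 fold change was -0.51 in line 1, -0.46 in line 2 and 0.02 in line 3 (adjusted p = 0.000123, 0.000151 and 0.917). In line 1 it was -0.73 without the heavy and -0.31 without the light library. AURKA, the Aurora kinase of the spindle poles, had -0.41, -0.26 and 0.11, and TPX2, its activator, -0.26, -0.21 and 0.05. Without the heavy library, AURKA had -0.44 and TPX2 -0.32 in line 1, and both still passed.

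The spindle checkpoint kinases BUB1 and TTK and the checkpoint protein BUB1B were all lower in line 1, with log2 fold changes of -0.25, -0.26 and -0.24, and -0.31, -0.28 and -0.29 without the heavy library. In line 2 BUB1B alone passed (-0.24, edgeR adjusted p = 0.00633), and none did in line 3. Of the 5 genes of kinetochore and centromere, CENPA, CENPE, CENPF and NUF2 were lower in line 1, and CENPF alone in line 2. CENPF had -0.39, -0.32 and -0.03 in lines 1, 2 and 3 (adjusted p = 0.000299, 0.000924 and 0.839), and -0.42 in line 1 without the heavy library (adjusted p = 0.00144). NUF2 had -0.24 in line 1, or -0.38 without it, and CENPA -0.25, or -0.37. In the heavy library itself their log2 ratios to the WT mean were -0.116 and -0.12, against -0.371 and -0.376 in the light one. NDC80, which forms the microtubule-binding complex of the kinetochore with NUF2, had 38.6, 41.6 and 40.5 CPM in the KO lines in heavy medium and 36.5, 42.7 and 38.2 CPM in light medium, against 44.7, 37.9 and 39.8 CPM and 41.5, 37.2 and 39.3 CPM in WT. KO and WT values interleaved, and no line passed.

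Among the 6 spindle motors and microtubule proteins, KIF11, KIF2C, KIF4A, DLGAP5 and HMMR were lower in line 1, with log2 fold changes between -0.4 and -0.17. KIF2C had -0.17, or -0.26 without the heavy library, in which its log2 ratio to the WT mean was -0.089. KIF11, the kinesin that pushes spindle poles apart, was also lower in line 2 (-0.17, edgeR adjusted p = 0.0488). NUSAP1 was counted at only 0.232 to 0.622 CPM in KO and 0.306 to 0.519 CPM in WT libraries, between 6 and 22 reads a library. Its log2 fold changes among lines are computed from those few reads, and no line passed. An annotated same-strand gene, AC087721.2, overlaps 62.2% of the exon sequence of NUSAP1 and had 0 counts over all libraries. The level of NUSAP1 in this table is therefore uncertain. PRC1, a bundler of midzone microtubules, was at 1.58 to 2.31 CPM in KO and 1.51 to 2.71 CPM in WT libraries, and AC068831.7 on the same strand overlaps 57.6% of its exon sequence. Its level is uncertain likewise.

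Of the 5 genes of midzone and cytokinesis, only KIF20A was lower in lines 1 and 2 (-0.25 and -0.28, edgeR adjusted p = 0.00494 and 0.00112), with -0.12 in line 3 (adjusted p = 0.318). In line 1 it was -0.4 without the heavy library, in which the log2 ratio of KIF20A to the WT mean was -0.108. ANLN, the scaffold of the contractile ring, had -0.02, 0.16 and 0.05 in lines 1, 2 and 3. ECT2, which activates RhoA at the cleavage furrow, had -0.16, 0.03 and 0.11, and KIF14 had -0.11, 0.06 and 0.06. None of these passed in any line. The group had a median log2 fold change of -0.16 in line 1 and 0.03 in line 2.

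The 3 genes around the anaphase-promoting complex had the lowest group median in line 2, -0.43, and a median of -0.4 in line 1 and 0.04 in line 3. CDC20, the activator of the complex (chromosome 1, 43358955 to 43363203, plus strand), had 75.8, 60.3 and 105 CPM in KO lines 1, 2 and 3 in heavy medium and 61, 65.3 and 104 CPM in light medium. WT cells had 98, 100 and 101 CPM in heavy and 110, 103 and 97.1 CPM in light medium. The libraries of lines 1 and 2 overlapped each other and lay below all WT libraries, and line 3 was above the WT range in heavy medium and within it in light medium. The log2 fold change was -0.57 (SE 0.0735, edgeR adjusted p = 1.34e-05) in line 1 and -0.69 (SE 0.0745, adjusted p = 6.25e-07) in line 2. In line 3 it was 0.04 (SE 0.0704, adjusted p = 0.814). For line 1 it was -0.76 without the heavy and -0.39 without the light library. CDC20 did not pass over both media (-0.37, SE 0.149, adjusted p = 0.0912).

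UBE2C, the ubiquitin-conjugating enzyme of the complex, had 97.6, 82.9 and 115 CPM in the KO lines in heavy medium and 83.2, 88.1 and 123 CPM in light medium, against 114, 121 and 122 CPM and 112, 114 and 110 CPM in WT. Line 3 was within the WT range in heavy and above it in light medium, and the other lines were below it. Its log2 fold change was -0.35 in line 1, -0.43 in line 2 and 0.04 in line 3 (edgeR adjusted p = 0.000371, 2.57e-05 and 0.768). For line 2 it was -0.53 without the light and -0.35 without the heavy library, and for line 1 -0.46 without the heavy one. PTTG1, securin, had -0.4, -0.4 and -0.02, with -0.67 in line 1 without the heavy library. Its log2 ratio to the WT mean was -0.168 in that library and -0.657 in the light one. Of the genes of chromosome structure and periphery, TOP2A, the topoisomerase that untangles sister chromatids, had -0.35, -0.25 and -0.03, and MKI67 had -0.31, -0.2 and -0.12. Both passed in lines 1 and 2. Without the heavy library of line 1, TOP2A had -0.39 there (adjusted p = 0.0032), and MKI67 had -0.26 and did not pass (adjusted p = 0.0701).

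**Figure D3:**
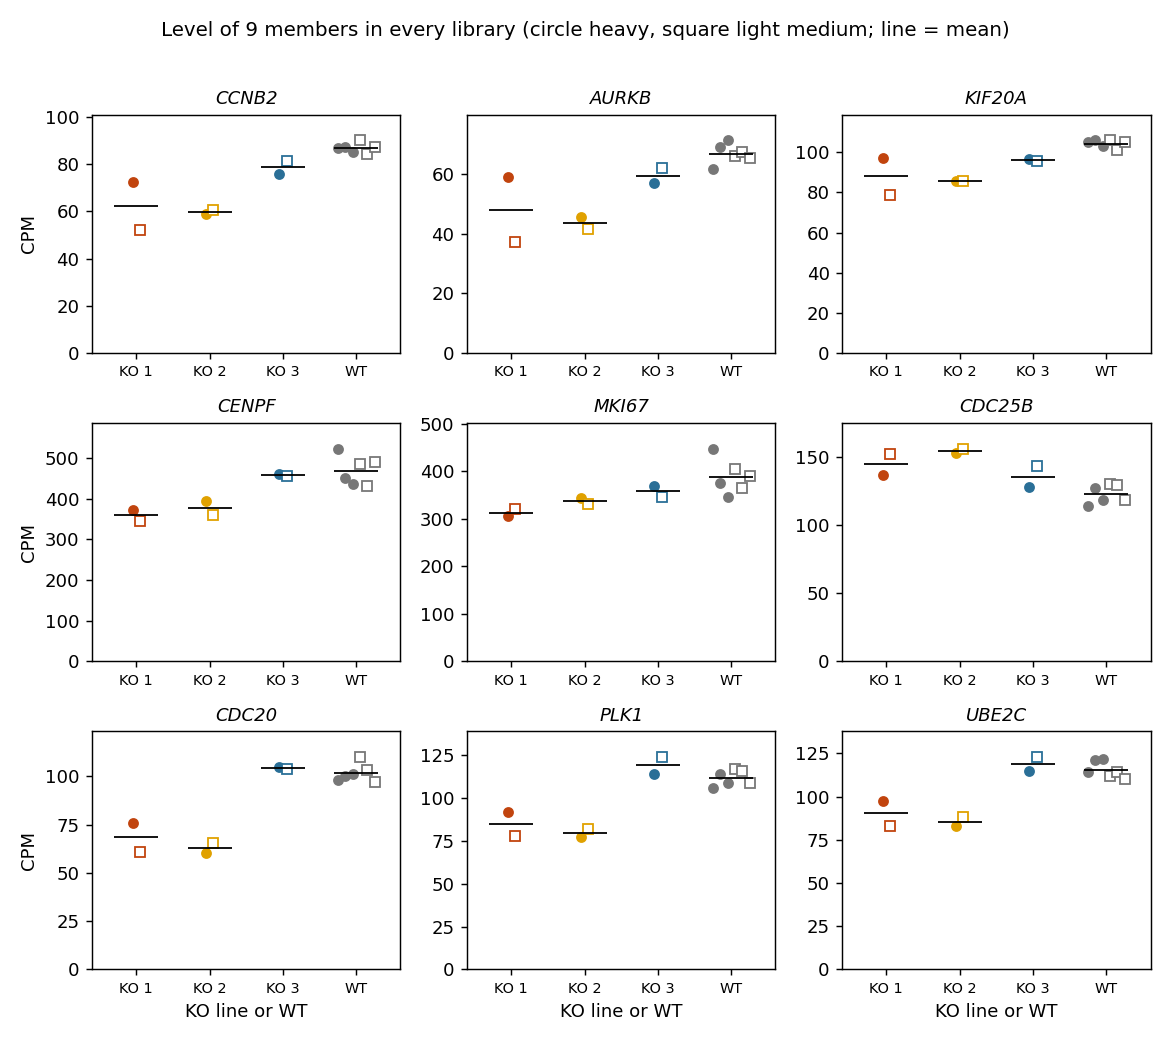
CPM (y axes, from 0) of 9 members in every library, by KO line and WT (x axes); circles are heavy and squares light medium, and the black line is the group mean. For CDC20, PLK1 and UBE2C, lines 1 and 2 lie below all WT libraries and line 3 within or above the WT values, while CDC25B is above its WT mean in all 6 KO libraries.

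Library by library, the summed level of the 36 genes was 3572, 3641 and 4226 CPM in KO lines 1, 2 and 3 in heavy medium and 3299, 3649 and 4114 CPM in light medium. WT libraries summed to 4381, 4156 and 3946 CPM in heavy and 4366, 4026 and 4191 CPM in light medium. Lines 1 and 2 were below every WT library in both media, and line 3 was inside the WT range. As a share of the WT mean of the same medium, lines 1, 2 and 3 stood at 82.2, 87.2 and 99.8%, with a WT spread of 4.18 percentage points (SD, n = 6).

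Set against the 3 WT libraries of its medium, the heavy library of line 1 had 31 members below the WT range, 1 above and 4 within. The background for below was 30.1% of all tested genes. The light library of line 1 had 30 below (background 36.6%). Line 2 had 22 below in heavy (35.1%) and 22 in light medium (37.9%), and line 3 had 6 in heavy (28.9%) and 8 in light medium (28.7%). Above the WT range were 1, 3 and 11 members in lines 1, 2 and 3 in heavy medium, where 32.8, 39 and 32.3% of all genes were above it, and 2, 3 and 5 in light medium, where 37.6, 38.3 and 29.4% were. The 11 members of line 3 are thus near the share over all genes. Both libraries of a line were below for 28 members in line 1 (background 21.9%), 18 in line 2 (26.9%) and 3 in line 3 (13%). The lowest ratio to the WT mean of its medium among the KO libraries was that of line 1 in light medium for 27 members. The WT libraries were not level either: the first WT library was the highest of its group for 23 members in heavy and 25 in light medium.

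**Figure D4:**
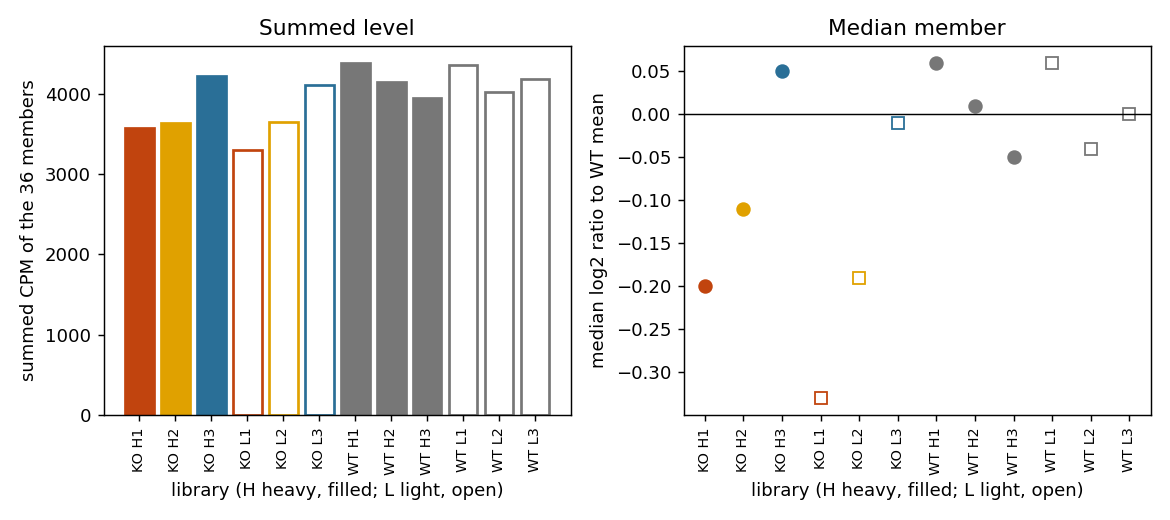
Left, summed CPM of the 36 genes (y axis, from 0) in each library; right, the median over genes of the log2 ratio to the WT mean of the same medium. KO line 1 in light medium is lowest on both sides, at 3299 CPM and -0.33, and line 3 lies among the WT libraries.

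Levels between genes were compared per length only. In WT cells UBE2C was highest, at 89.7 CPM per kb of exon sequence, followed by TOP2A at 73.1 and TPX2 at 62.8 CPM per kb. Beside NUSAP1 and PRC1, the lowest were CENPE at 3.9 and CDC25C at 4.38 CPM per kb.

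Heavy and light medium were compared within KO, within WT and over both, and the genotype by medium interaction was tested. No member passed in WT (0.00631% of genes called), in KO (0%), over both genotypes (0%) or in the interaction (0%), and DESeq2 called none. None had an unadjusted p under 0.05, where 808 of 15845 tested genes did in WT and 138 of 16206 in KO. Over both genotypes 531 of 16704 tested genes did, and 149 in the interaction. The fits with KO libraries did not pair them by line. Differences between lines thus enter their spread, and a small effect of the medium could be missed. By size of p, the first were CENPA and CDC25B in KO, with heavy minus light log2 differences of 0.16 and -0.11 (edgeR adjusted p = 1 each). In WT they were HMMR (-0.14, adjusted p = 0.978) and UBE2C (0.09, adjusted p = 0.978). HMMR, which helps to build spindle poles, had 47.4, 52.8 and 68.3 CPM in the KO lines in heavy medium and 43.9, 53.9 and 61 CPM in light medium, against 63.1, 57.5 and 50.7 CPM and 68.2, 58.5 and 63.1 CPM in WT. Heavy and light values overlapped in both genotypes. CENPA, the centromeric histone H3, had 33.8, 35.6 and 37.2 CPM in heavy and 27.2, 35.2 and 33.2 CPM in light medium in the KO lines. WT cells had 37.3, 37.2 and 35.9 CPM in heavy and 34.5, 34.9 and 37.2 CPM in light medium. Over both genotypes, CDC25B had -0.09 and CENPA 0.1 (adjusted p = 0.999 each). In the interaction DLGAP5, a spindle stabiliser, and HMMR had 0.23 each (adjusted p = 1). DLGAP5 had 54.5, 65.7 and 71.2 CPM in heavy and 52.9, 58.9 and 63.5 CPM in light medium in the KO lines, against 68.9, 63.5 and 57.4 CPM and 72.5, 60.5 and 70.3 CPM in WT.

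Other genes of the pathway were counted from lists of non-members. Over all genes, 9.78% were called lower over both media, 12.8% in line 1, 20.1% in line 2 and 1.73% in line 3, and 15, 15.4, 22.9 and 3.27% higher. Of 42 other mitotic genes, 16 were lower over both media and none higher, 32 were lower and none higher in line 1, 24 lower and 1 higher (RACGAP1) in line 2, and none passed in line 3. The lower calls were 38.1, 76.2 and 57.1% of the list over both media and in lines 1 and 2. Without the heavy library of line 1, 28 were lower in line 1. Their medians were -0.15, -0.24, -0.19 and -0.04. CIT, a kinase of the midbody, averaged 33.4 ± 1.61 CPM in KO and 38.5 ± 2.01 CPM in WT (SD, n = 6 libraries each, 2 per KO line). It had a log2 fold change of -0.2 (edgeR adjusted p = 0.0102). ESPL1, separase, which cuts cohesin, averaged 80.1 ± 4.66 and 91 ± 2.44 CPM (-0.18, adjusted p = 0.0121), and the spindle kinesin KIF15 averaged 40.7 ± 4.98 and 50.8 ± 3.48 CPM (-0.32, adjusted p = 0.0119).

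Of 19 regulators of G2 and mitotic transcription, 4 were lower over both media (RBL1, E2F3, E2F7 and NFYA), 7 in line 1, 8 in line 2 and 2 in line 3, and none was higher. These were 21.1, 36.8, 42.1 and 10.5% of the list, and 8 were lower in line 1 without its heavy library. E2F7, a repressor among the E2F factors, had 12.6, 9.62 and 14.3 CPM in KO lines 1, 2 and 3 in heavy medium and 10.6, 8.22 and 11.2 CPM in light medium. WT cells had 18, 17.6 and 16.6 CPM in heavy and 15.5, 16.3 and 13.8 CPM in light medium. Within each medium the genotypes did not overlap. The log2 fold change was -0.56 over both media, and -0.49, -0.87 and -0.36 in lines 1, 2 and 3 (edgeR adjusted p = 0.00256, 0.000392, 6.45e-07 and 0.0196). E2F3, an activator, had -0.34 over both media (adjusted p = 0.0152). NFYA, a subunit of the CCAAT-binding factor NF-Y, averaged 82.2 ± 5.46 CPM in KO and 97.7 ± 4.98 CPM in WT (SD, n = 6 libraries each, 2 per KO line). It had -0.25 over both media (adjusted p = 0.00365) and passed in each line.

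Of the DREAM and MuvB genes, MYBL2 was lower in line 1 (-0.22, edgeR adjusted p = 0.0137, or -0.32 and 0.00555 without the heavy library) and did not pass over both media (-0.11, adjusted p = 0.187). RBL1, a pocket protein, was lower over both media (-0.21, adjusted p = 0.0182) and in line 2. LIN9 had -0.13, LIN54 0.04, RBL2 -0.04 and E2F1 -0.02 over both media, and none of these passed in any line, although LIN9 did in line 1 without the heavy library (-0.37, adjusted p = 0.0476). E2F4, the E2F factor of DREAM, was lower in line 2 alone among the lines (-0.22, adjusted p = 0.00907).

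Among 17 brakes and factors of mitotic exit, 4 were lower and 1 higher over both media, 6 lower and 3 higher in line 1, 5 lower and 2 higher in line 2, and none lower and 1 higher in line 3. In line 2 these were 29.4% lower and 11.8% higher, near and under the shares over all genes, and in line 1 35.3% and 17.6%, or 4 lower and 2 higher genes without the heavy library. Over both media they were 23.5% and 5.88%. CDKN1A, the CDK inhibitor p21, had 23.4, 22.3 and 48.5 CPM in KO lines 1, 2 and 3 in heavy medium and 26.1, 22.5 and 51.6 CPM in light medium. WT cells had 20.2, 22.4 and 23.5 CPM in heavy and 23.8, 24.4 and 22.7 CPM in light medium. Line 3 stood apart from every other library in both media (1.13, SE 0.0663, edgeR adjusted p = 7.06e-09), while lines 1 and 2 had 0.12 and -0.02 (adjusted p = 0.247 and 0.816). CDKN1B, the inhibitor p27, had -0.08 over both media (adjusted p = 0.207). The inhibitors CDKN2C and CDKN2D had -0.31 and 0.43 over both media (adjusted p = 0.00716 and 0.0103), and the phosphatase CDC14B had -0.29 (adjusted p = 0.00657).

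Of 24 genes of DNA replication and S phase, 8 were lower over both media, 12 in line 1, 13 in line 2 and 1 in line 3, and none was higher. These were 33.3, 50, 54.2 and 4.17% of the list, and 12 were lower in line 1 without its heavy library. The gene called in line 3 was RRM2, a subunit of ribonucleotide reductase. It averaged 234 ± 14.6 CPM in KO and 288 ± 18.5 CPM in WT (SD, n = 6 libraries each, 2 per KO line). It had -0.3 over both media (edgeR adjusted p = 0.000581) and -0.29, -0.32 and -0.28 in lines 1, 2 and 3. It was also the only gene of these 4 lists to pass on counts summed per line (adjusted p = 0.0293). RFC4, of the clamp loader, had -0.25 over both media (adjusted p = 0.008), and CCNE2, cyclin E2, had -0.33 (adjusted p = 0.00987). The medians of the list were -0.12 over both media and -0.17, -0.16 and -0.04 in lines 1, 2 and 3.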

How the data were processed

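Raw read counts were deposited as a table of 59087 genes by 12 libraries, in whole numbers, and no row is a total or an unassigned class. Per the labels' protocols, libraries were made with a stranded poly(A) kit. Per the submitters' processing notes, bcl2fastq 2.19.0, STAR 2.7.0f, featureCounts of Subread 1.6.4, DESeq2 1.22.1 with R 3.5.1 and the build GRCh38.p13 were used. Neither the annotation release nor the strand setting of the counting is stated in the labels, so levels of overlapping genes are uncertain. Positions are those of GENCODE release 29 on GRCh38.

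The main test was edgeR 4.0.16 (R 4.3.3) on the unaltered counts, with TMM scaling, filterByExpr by group, robust quasi-likelihood fits on the whole table (16704 genes over 12 libraries), Benjamini-Hochberg adjustment over all tested genes and a threshold of 0.05. Standard errors come from the F statistic. The scripts were tested on simulated data with known changes. Log2 ratios to WT used a pseudocount of 0.5 CPM. Alternatives were RLE factors, library totals, other filters, DESeq2 1.42.0, limma-voom (limma 3.58.1), counts summed per line, the line as a correlated block, the replicate number as a block, a pooled spread, the KO libraries alone, and each line or library left out. KO libraries with the same number come from the same line, per the labels, so numbers pair heavy with light KO libraries (correlation of deviations 0.043, 0.792 and 0.786).

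The members and lists were chosen with earlier results of these data known. Values in every library are given for members past 0.05 over both media, up to 4 with the smallest p per line, the 3 widest and 3 narrowest among lines, and 2 per comparison of media. From each list, 3 genes with the smallest p and a fixed set of regulators are named. 1 gene of that set is not reported here. RACGAP1, and members named by group, were named after their values were seen. Positions and promoters were matched by symbol.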

Additional observations from a re-analysis of the deposited data

Results flagged for a closer look

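The 3 KO lines differed from each other in 15 of the 36 genes, by a test of the difference among lines itself. It was edgeR's quasi-likelihood test, adjusted over all tested genes, where 23.2% passed. The smallest adjusted p belonged to CDC20 (1.08e-05), PLK1 (4.73e-05) and UBE2C (0.000242). CCNB1 followed with 0.000523, BIRC5 with 0.000609 and AURKA with 0.00134. HMMR had 0.00666, CENPF 0.00672 and TPX2 0.00786. The checkpoint genes BUB1 and BUB1B had 0.0112 and 0.0119, PTTG1 had 0.012, CCNB2 0.0136, CCNA2 0.0145 and TOP2A 0.0211. All 15 had a higher log2 fold change against WT in line 3 than in either other line. Each line has 2 libraries, so the spread behind these tests is that between the media of a line together with that among WT libraries.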

How the results depend on the processing

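Over the planned settings other than leaving out a library, line 1 had between 27 and 29 called members, line 2 between 15 and 17, line 3 none, and the difference among lines between 12 and 18. Over both media the count of members called was 6, against 11 with DESeq2, 0 on counts summed per line, 11 with the replicate number as a block, 2 without line 2 and 22 without line 3. Without a filter on low counts it was 2 in heavy and 4 in light medium, and DESeq2 called 5 in light medium, where edgeR called none. With 1 library left out, the count ranged from 3 to 17 over both media, from 0 to 6 in heavy and from 0 to 22 in light medium. It ranged from 8 to 30 for line 1, from 9 to 19 for line 2 and from 10 to 20 for the difference among lines, and stayed at 0 for line 3, each comparison of media and the interaction. All of these are counts of members alone. Shares over all genes are given above for some of these fits, and the totals over all genes moved with the settings too. A changed count is therefore not by itself a change particular to the members. None of the 14 single-gene results followed through the settings changed direction, and 27 of their values lost the call. In KO against WT, samples share only a number: deviations of same-numbered libraries correlated between -0.283 and -0.044. The replicate block changed no call of a member in heavy against light medium. The causes were not tested. Over all genes, KO against WT called 4135 genes, 272 on summed lines, and 2327, 1710 and 7415 without lines 1, 2 and 3. In heavy medium it called 18, against 775 without a filter, 809 with DESeq2, 99 with a pooled spread, 9 with the stricter filter, 4 with library totals and 1 with limma-voom. In light medium it called 231, against 1351 without a filter, 1723 with DESeq2, 616 with a pooled spread and 135 with limma-voom. The difference among lines called 3879, or 2062 on the 6 KO libraries alone. Line 3 called 836, or 1387 without a filter, and heavy against light WT called 1, against 39 without a filter, 9 with DESeq2 and 13 with the block. At 6 to 22 reads a library, NUSAP1 allows no statement on direction.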
